A study of Mus musculus with 10 samples.

Results

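Plasma cell and IgA transport genes were followed in mouse kidney as 8 genes picked by name: Jchain, Pigr, Mzb1, Derl3, Tnfrsf17, Prdm1, Irf4 and Pou2af1. All 8 were found among the 55952 genes of the deposited table, and 4 of them (Jchain, Pigr, Derl3 and Prdm1) passed the filter on low values described below. The genes had been proposed from their levels at high and low altitude in these same libraries, so those levels are given as a description, and no call on these genes is used as evidence. The animals were C57BL/6 mice, a common inbred strain, kept for 30 days at 4200 m (hypoxia, 5 libraries) or at 400 m (control, 5 libraries). Kidney RNA was sequenced in bulk. Altitude cannot be told apart from the place of housing, because each group lived at its own site. Whether each library stands for a separate animal is not stated, and the spread behind every p-value is that between libraries, which may be technical.

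Plasma cells are the antibody-secreting end stage of B cells. They make IgA and IgM as polymers held together by the joining chain, and these polymers bind the polymeric immunoglobulin receptor on epithelial cells, which carries them through the cell and releases them at the lumen. In the kidney this receptor is known from tubule epithelium, and secretory IgA is a normal constituent of urine. The plasma cell state depends on a set of transcription factors, on a large secretory endoplasmic reticulum (ER) and on survival signals from the surrounding tissue.

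Values are FPKM, fragments scaled to gene length and library size, so levels of different genes can be set side by side. Each library held 16561672 to 17845464 reads assigned to genes. Hypoxia replicates 1 to 3 were compared with the 5 controls, and hypoxia replicates 4 and 5 are shown apart, because they held genes of other tissues at levels not seen elsewhere. Hypoxia replicate 4 had an adrenal marker sum of 1067 FPKM (8 genes) and a fat marker sum of 676 FPKM (8 genes), against 0.920 to 1.55 and 69.8 to 192 FPKM in controls. Hypoxia replicate 5 had a B cell marker sum of 478 FPKM (12 genes), against 1.99 to 3.75 FPKM in controls. It was also the only library with reads of Tlx1 and Nkx2-5, transcription factors of the developing spleen. The protocol text names retina as the tissue, whereas the samples are labelled kidney, and Umod, a marker of the thick ascending limb of the kidney, lay at 616 FPKM or more in every library. The 14724 genes that averaged 0.5 FPKM or more in the 8 compared libraries were tested with limma on log2(FPKM + 0.5), a scale that understates the change of low genes. Of these, 1808 passed an adjusted p of 0.05 (12.3%), 667 of them higher in hypoxia (4.53%) and 1141 lower (7.75%). When the libraries were rescaled without the 100 most abundant genes, 1128 were higher and 784 lower.

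Of the 8 genes, Jchain and Pigr were higher in hypoxia replicates 1 to 3 with no overlap with the controls, and the other 6 overlapped. The fit over all genes called these 2 of the 4 tested genes, on the same values that led to their choice, beside 12.3% of all tested genes. Jchain met the filter on low values only through hypoxia, with a control mean of 0.189 FPKM, and could hardly come out lower. Among all tested genes, 9.73% lay in hypoxia replicates 1 to 3 entirely above the controls. Since the genes were proposed on this contrast, nothing is read from their count. In bulk RNA, more cells of a type and more RNA per cell cannot be told apart.

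Jchain (ENSMUSG00000067149, chromosome 5 from 88519809 to 88527891, minus strand, GRCm38) encodes the joining chain of polymeric IgA and IgM. It was at 3.04, 3.63 and 3.31 FPKM in hypoxia replicates 1 to 3, which rests on 134 to 166 reads a library. In control replicates 1 to 5 it was at 0.214, 0.0968, 0.0237, 0.109 and 0.502 FPKM, or 1 to 21 reads. The 3 hypoxia libraries were close to each other and all lay well above the highest control, while the controls were spread widely around a level near the limit of detection. The group means were 3.33 ± 0.297 FPKM in hypoxia (SD, n = 3) and 0.189 ± 0.188 FPKM in controls (SD, n = 5), a ratio of 17.6. The log2 fold change was 2.51 with a pseudocount of 0.5, 3.78 with 0.1 and 1.88 with 1, so its size depends on the handling of the few control reads.

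Pigr (ENSMUSG00000026417, chromosome 1 from 130826684 to 130852249, plus strand) encodes the polymeric immunoglobulin receptor, which takes up the polymers that the joining chain closes. It was at 76.3, 90.5 and 117 FPKM in hypoxia replicates 1 to 3, on 5385 to 8041 reads a library. In control replicates 1 to 5 it was at 35.9, 43.9, 54.8, 26.7 and 26.9 FPKM, on 1796 to 3708 reads. Every hypoxia library exceeded every control, and the highest library was 1.53 times the lowest within hypoxia and 2.06 times within controls. The means were 94.5 ± 20.4 FPKM in hypoxia (SD, n = 3) and 37.6 ± 12.0 FPKM in controls (SD, n = 5), a ratio of 2.51 and a log2 fold change of 1.35 (SE 0.249). By its mean, Pigr ranked 421 among 21936 protein-coding genes in hypoxia replicates 1 to 3 and 1233 in controls, whereas Jchain ranked 8158 in hypoxia and 13463 in controls.

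**Figure D1:**
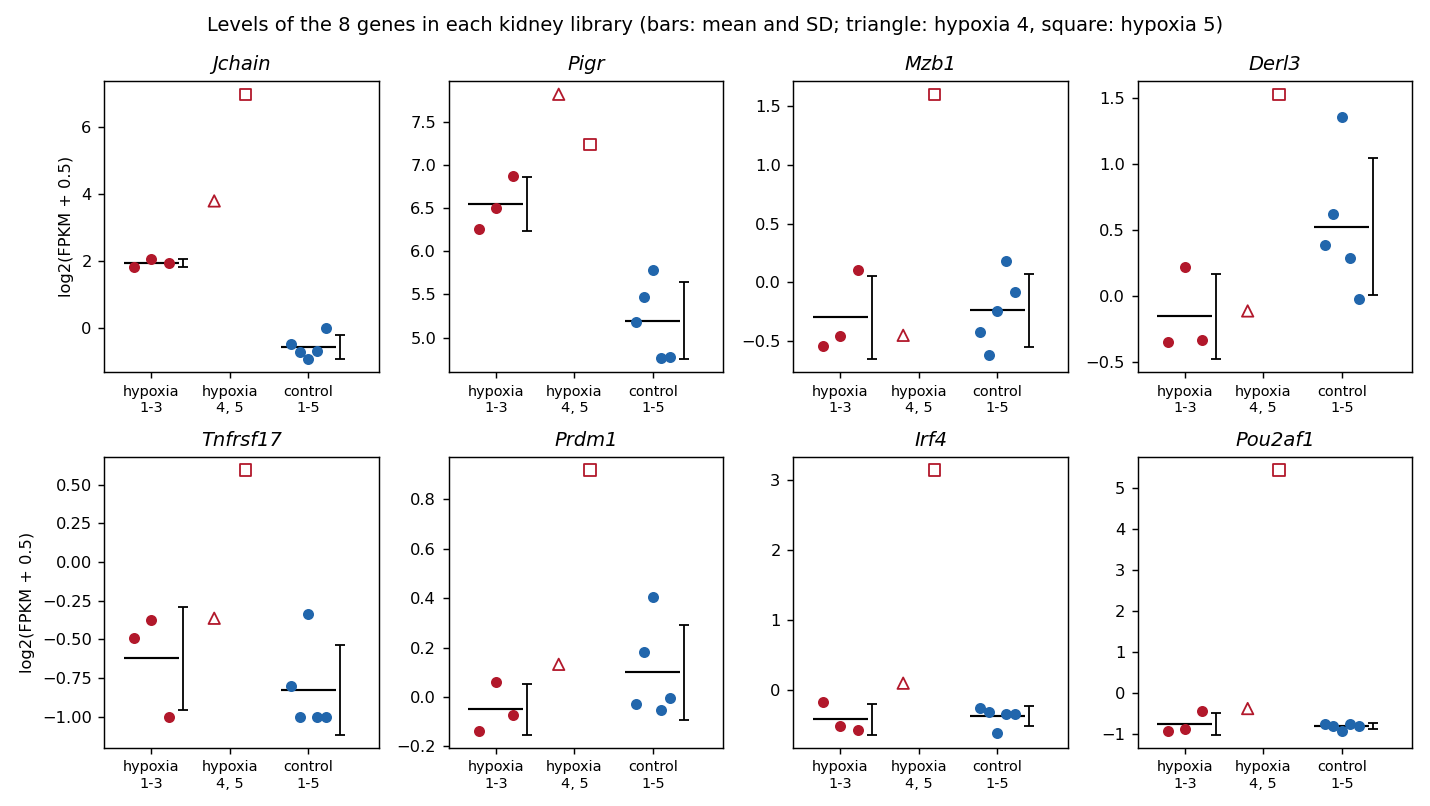
Levels of the 8 genes in each library as log2(FPKM + 0.5), each panel with its own vertical scale; dots are libraries, horizontal bars the means and vertical bars the SD of hypoxia replicates 1 to 3 (n = 3) and of controls (n = 5), and open symbols are hypoxia replicates 4 and 5. In Jchain and Pigr the 3 hypoxia dots lie above all 5 controls, and in the other 6 panels the dots of the groups overlap.

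The promoters of Jchain and Pigr are shown because these are the 2 genes whose groups stood apart, and that of Derl3 because it holds the rarest of the motifs searched. They were taken from RefSeq (GRCm38.p6), which held a promoter for 7 of the 8 genes, and run from 250 bases before the start of transcription to 50 bases from it onward. Capitals mark exact matches, on either strand, to 6 motifs.
Jchain, chr5:88527848-88528147, minus strand: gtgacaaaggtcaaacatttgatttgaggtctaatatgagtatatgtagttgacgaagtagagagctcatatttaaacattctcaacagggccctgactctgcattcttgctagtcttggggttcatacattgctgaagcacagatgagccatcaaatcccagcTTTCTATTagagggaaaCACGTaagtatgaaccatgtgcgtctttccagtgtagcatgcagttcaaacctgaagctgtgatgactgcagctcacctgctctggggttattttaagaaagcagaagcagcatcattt
Pigr, chr1:130826434-130826733, plus strand: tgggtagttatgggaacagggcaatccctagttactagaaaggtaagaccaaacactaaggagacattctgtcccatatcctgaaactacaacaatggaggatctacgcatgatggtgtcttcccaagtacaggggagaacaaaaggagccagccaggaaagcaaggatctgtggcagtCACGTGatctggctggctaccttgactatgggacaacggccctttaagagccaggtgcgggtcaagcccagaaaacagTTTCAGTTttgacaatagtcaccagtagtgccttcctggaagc
Derl3, chr10:75893148-75893447, plus strand: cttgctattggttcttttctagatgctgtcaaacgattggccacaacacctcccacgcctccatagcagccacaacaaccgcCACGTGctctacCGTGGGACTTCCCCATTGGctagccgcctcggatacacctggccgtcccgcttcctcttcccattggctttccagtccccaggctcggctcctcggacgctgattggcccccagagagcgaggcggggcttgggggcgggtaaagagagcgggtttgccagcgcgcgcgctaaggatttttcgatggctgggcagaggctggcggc

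The motifs were the interferon regulatory factor core AANNGAAA, the hypoxia response core ACGTG, the E box CACGTG (which contains the hypoxia response core on both strands), the octamer ATGCAAAT, the unfolded protein response element TGACGTGG (which contains the hypoxia response core) and the ER stress response element, the longest of the 6. Jchain held the interferon regulatory factor core at bases -86 to -79 from the start and the hypoxia response core at -69 to -65. Pigr held the E box at -71 to -66 and the interferon regulatory factor core at 8 to 15. Derl3 held the E box at -168 to -163 and the ER stress response element at -156 to -138. Among 32851 mouse promoters of the same length, 23.9% held the interferon regulatory factor core, 19.6% the hypoxia response core, 7.15% the E box and 0.119% the ER stress response element. The octamer, through which the Pou2af1 protein acts with its partners, was found in none of the 7 promoters and in 1.74% of all, and the unfolded protein response element was found in that of Pou2af1 alone and in 0.676% of all. A match is a run of letters and not a measured binding site.

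The chains that Jchain joins gave a mixed picture. Igha, the constant region of IgA, was at 7.33, 8.34 and 9.82 FPKM in hypoxia replicates 1 to 3, against 0 to 0.112 FPKM in controls, where it rested on 7 reads in all (limma adjusted p = 2.05e-06). Ighm, the constant region of IgM, was at 4.75, 3.53 and 12.1 FPKM in hypoxia and 2.54 to 5.39 FPKM in controls, and did not pass (adjusted p = 0.246). IgA therefore made up 39.4 to 47.5% of the reads of heavy chain constant genes in hypoxia replicates 1 to 3, with exact 95% intervals between 36.5 and 51.0% that cover counting error only. The intervals of hypoxia replicates 2 and 3 did not overlap, so these libraries differed by more than counting error. In controls it made up 0 to 4.95% of 101 to 185 such reads. Jchain stood at 0.151 to 0.306 times the summed FPKM of Igha and Ighm in these hypoxia libraries and at 0.00837 to 0.134 times in controls. Of the 12 constant region genes, 7 were tested and 6 rose in hypoxia replicates 1 to 3, while 0 fell. Among all tested genes 4.53% rose and 7.75% fell. Among them Ighg2b rose to 2.80 ± 0.642 FPKM in hypoxia (SD, n = 3), against 0.0131 ± 0.0199 FPKM in controls (SD, n = 5), and Igkc, the kappa light chain, to 47.8 ± 11.3 FPKM, against 2.0 ± 1.0 FPKM (adjusted p = 0.000129 and 0.000482). Ighg2c had 2.71 to 5.94 FPKM in hypoxia and no read in any control (adjusted p = 0.000132). Igha, Ighg2b, Ighg2c, Iglc1 and Iglc2 met the filter on low values only through hypoxia, with control means of 0 to 0.362 FPKM. A gene admitted in this way could hardly come out lower, so their calls and adjusted p-values are a description.

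**Figure D2:**
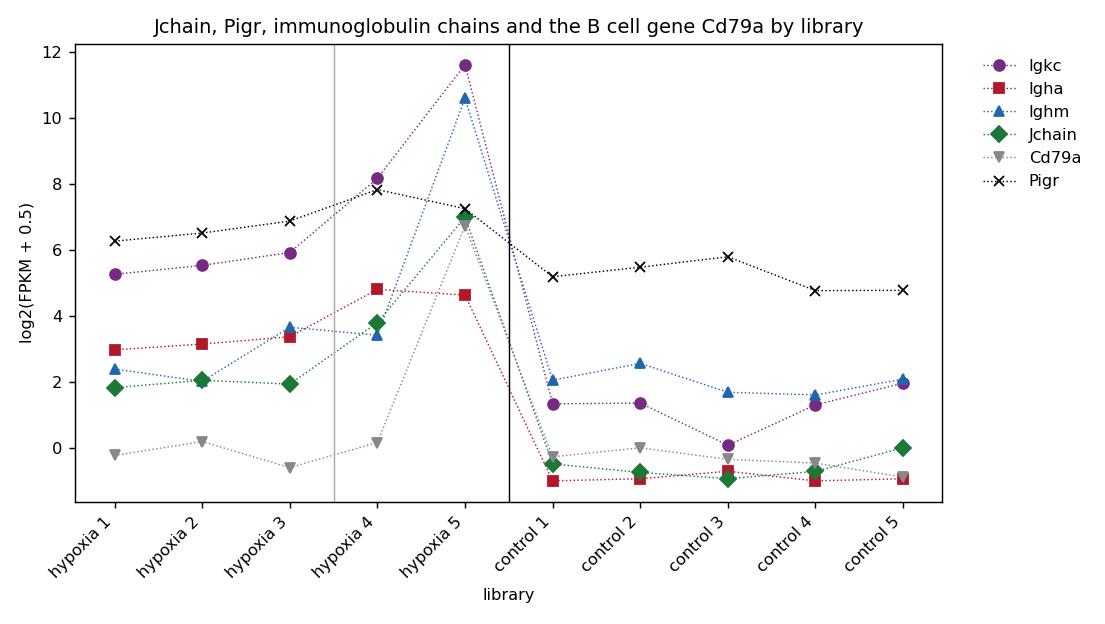
Levels of Jchain, Pigr, 3 immunoglobulin chain genes and the B cell gene Cd79a as log2(FPKM + 0.5) in each of the 10 libraries; dotted lines only link points of a gene. Igha, Igkc, Jchain and Pigr lie higher in all hypoxia libraries than in the controls, Ighm overlaps in hypoxia replicates 1 to 3, and Cd79a stands out in hypoxia replicate 5 alone.

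The other plasma cell members did not follow Jchain in hypoxia replicates 1 to 3. Mzb1 encodes an ER protein of B cells and plasma cells that helps immunoglobulin chains fold and assemble. It was at 0.188, 0.227 and 0.576 FPKM in hypoxia and at 0.246, 0.150, 0.343, 0.634 and 0.446 FPKM in controls. These values rest on 4 to 12 and 3 to 14 reads a library, so only a large difference could have been seen, and the groups overlapped over most of their range. Mzb1 stayed below the filter on low values, and no promoter is shown for it.

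Derl3 (ENSMUSG00000009092, chromosome 10 from 75893413 to 75895941) encodes a derlin, a membrane protein that helps export misfolded proteins from the ER and is known from secretory cells. It was at 0.286, 0.663 and 0.293 FPKM in hypoxia replicates 1 to 3 and at 0.809, 1.04, 2.06, 0.718 and 0.483 FPKM in controls. Its mean was lower in hypoxia, 0.414 ± 0.216 FPKM (SD, n = 3), than in controls, 1.02 ± 0.614 FPKM (SD, n = 5), with a log2 fold change of -0.68 (SE 0.296). One hypoxia library lay within the range of the controls, and control replicate 3 was the highest of the 8 libraries. The derlins Derl1 and Derl2, which are widely expressed, fell by 0.23 and 0.27 on the log2 scale (adjusted p = 0.0415 and 0.0262), to 36.0 to 38.0 FPKM for Derl1 in hypoxia, against 40.6 to 45.7 FPKM in controls.

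Tnfrsf17 encodes BCMA, the receptor through which long-lived plasma cells receive survival signals. It rested on 3, 4 and 0 reads in hypoxia replicates 1 to 3 and on 1, 0, 4, 0 and 0 reads in control replicates 1 to 5. The libraries without a read allow a level of up to 0.203 to 0.224 FPKM (3 reads, counting error only). At this depth only a large difference in Tnfrsf17 could have been seen.

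The 3 transcription factors of the set also overlapped between the groups. Prdm1 encodes Blimp-1, which shuts off the B cell program as plasma cells form. It was at 0.409, 0.543 and 0.450 FPKM in hypoxia replicates 1 to 3 and at 0.482, 0.633, 0.822, 0.464 and 0.496 FPKM in controls, on 40 to 55 and 45 to 77 reads. Its log2 fold change was -0.15 (SE 0.162), and 2 of the 3 hypoxia libraries lay below the lowest control.

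Irf4 encodes an interferon regulatory factor needed for plasma cell formation, also present in some dendritic cells and macrophages. It was at 0.396, 0.202 and 0.178 FPKM in hypoxia replicates 1 to 3 and at 0.341, 0.311, 0.158, 0.292 and 0.295 FPKM in controls. Hypoxia replicate 1 lay above every control and the other 2 lay below 4 of the 5. Pou2af1 encodes OBF-1, a B cell coactivator of octamer-binding factors. It rested on 1, 2 and 10 reads in hypoxia replicates 1 to 3 and on 4, 3, 1, 4 and 3 reads in control replicates 1 to 5, so its level in either group was near the limit of detection.

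Ordered by mean level in hypoxia replicates 1 to 3, the genes ran Pigr, Jchain, Prdm1, Derl3, Mzb1, Irf4, Tnfrsf17 and Pou2af1. The ranges of Pigr, Jchain and Prdm1 were apart from each other there, and every later gene overlapped with its neighbour. In controls the order was Pigr, Derl3, Prdm1, Mzb1, Irf4, Jchain, Tnfrsf17 and Pou2af1, and only the first was apart from its neighbour. Jchain was thus second of 8 in hypoxia and sixth of 8 in controls, where its range overlapped with those of Irf4 and Tnfrsf17.

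The 2 hypoxia libraries shown apart differed from each other. Hypoxia replicate 4 had 13.4 FPKM of Jchain, 26.6 times the highest control, and 226 FPKM of Pigr, the highest of all libraries and 4.13 times the highest control. Its Igha was at 27.4 FPKM and its Ighg2c at 57.7 FPKM. The other 6 genes were low in it, at 0.232 FPKM for Mzb1, 0.277 for Tnfrsf17, 0.424 for Derl3, 0.596 for Prdm1, 0.575 for Irf4 and 0.265 for Pou2af1, of which Irf4 and Pou2af1 exceeded every control. Its B cell marker sum was 6.09 FPKM, against 1.99 to 3.75 FPKM in controls, and the part of its adrenal and fat RNA in these values was not tested.

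Hypoxia replicate 5 exceeded every control in all 8 genes. Jchain was at 127 FPKM, Pou2af1 at 43.0 FPKM, Irf4 at 8.38 FPKM, Mzb1 at 2.53 FPKM, Derl3 at 2.39 FPKM, Prdm1 at 1.39 FPKM, Tnfrsf17 at 1.01 FPKM and Pigr at 151 FPKM. Relative to the highest control this was 459 times for Pou2af1 and 252 times for Jchain, but 3.99 times for Mzb1, 3.46 times for Tnfrsf17, 1.69 times for Prdm1 and 1.16 times for Derl3. Its immunoglobulin was mostly IgM, with Ighm at 1545 FPKM and Igha at 24.2 FPKM, which made up 1.87% of 63111 heavy chain reads. All 12 B cell markers were above every control in it, as were 10 of 12 pancreas markers and all 12 T cell markers. Taking all 10 libraries, Jchain had a log2 fold change of 3.89, Pigr of 1.75, Pou2af1 of 1.37, Irf4 of 0.77 and Mzb1 of 0.29. Jchain and Pigr were again the 2 genes whose groups did not overlap. The share of all genes without overlap in 10 libraries was not counted, and nothing is read from this. In the limma fit of all 10 libraries 559 of 15264 tested genes rose (3.66%) and 1189 fell (7.79%).

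Levels of other cell types were set beside those of Jchain and Pigr in hypoxia replicates 1 to 3. The B cell marker sum was 4.11 to 4.82 FPKM in hypoxia and 1.99 to 3.75 FPKM in controls, without overlap. Of the 2 tested markers 0 lay entirely above the controls, beside 9.73% of all tested genes. The share over genes below the filter was not counted. Of all 12 markers, tested or not, 2 lay entirely above the controls. These were Pax5 (0.056 to 0.064 against 0 to 0.041 FPKM) and Cd37 (0.48 to 0.70 against 0.17 to 0.39 FPKM), both below the filter on low values. The groups overlapped in Cd79b (0.77 to 1.63 against 0.59 to 0.89 FPKM). They also overlapped in Ms4a1 and Cd79a, which stayed at 0.642 FPKM or less in these libraries. The T cell marker sum was 5.70 to 8.54 FPKM in hypoxia and 3.27 to 5.54 FPKM in controls. The neutrophil marker sum was 4.05 to 37.2 FPKM in hypoxia and 0.762 to 3.09 FPKM in controls, with the highest value in hypoxia replicate 3, the library that also had the highest Pigr of the 3. The macrophage marker sum was 72.1 to 106 FPKM in hypoxia and 65.8 to 89.2 FPKM in controls, and the dendritic cell marker sum 4.81 to 6.02 and 3.34 to 5.81 FPKM. Adrenal markers summed to 1.49 to 1.68 FPKM in these 3 libraries and 0.920 to 1.55 FPKM in controls, and lymph node and spleen stroma markers to 2.10 to 4.34 FPKM and 0.354 to 3.29 FPKM. Urothelium markers summed to 4.15 to 13.3 FPKM in hypoxia and 7.48 to 39.7 FPKM in controls, fat markers to 77.6 to 156 and 69.8 to 192 FPKM, and pancreas markers to 23.2 to 28.9 and 32.4 to 49.7 FPKM. Nearly all of the pancreas sum was Cela1, an elastase, at 23.2 to 28.4 FPKM in hypoxia and 32.4 to 49.6 FPKM in controls, while each of the other 11 pancreas genes was at 0.176 FPKM or less in these 8 libraries. Kidney tubule markers, with the podocyte gene Nphs1 in the list, summed to 10890 to 25140 FPKM in hypoxia and 25350 to 31600 FPKM in controls. Most of this sum came from the proximal tubule gene Kap, which was lowest in hypoxia replicate 3 at 8239 FPKM. The part of these cell types in the levels of Jchain and Pigr was not tested.

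**Figure D3:**
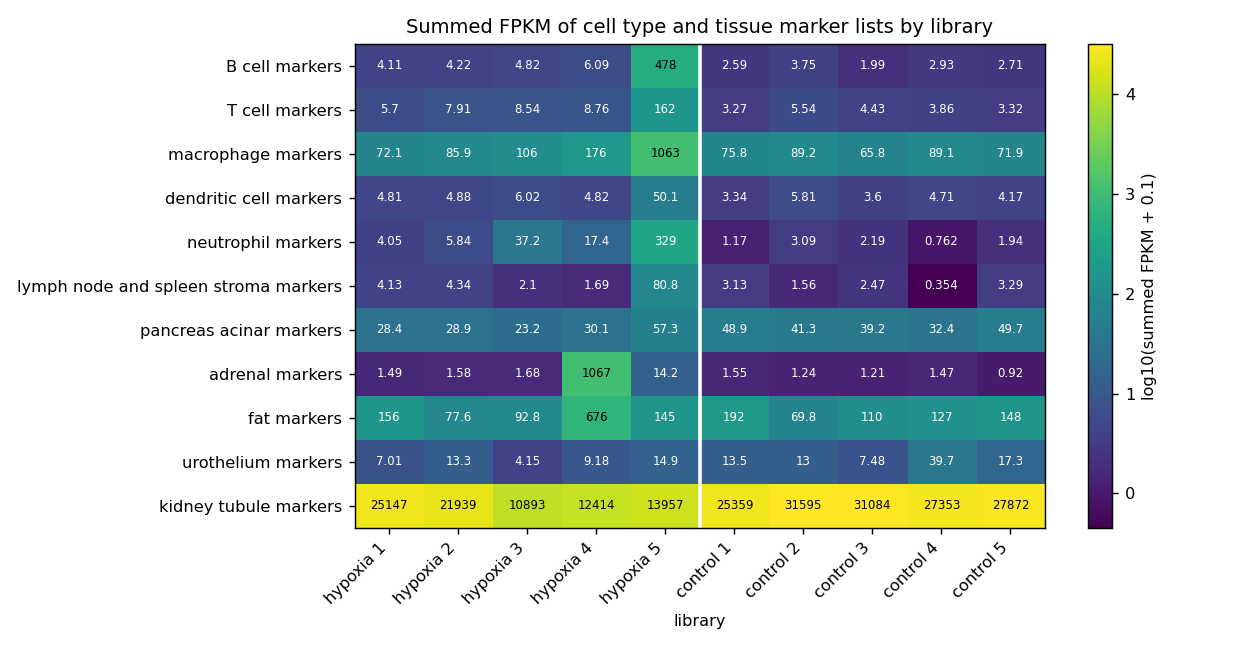
Summed FPKM of the marker list of each cell type or tissue (rows) in each library (columns); the number in a cell is the sum and its colour is log10 of the sum plus 0.1. Hypoxia replicate 5 stands out for B cell markers (478 FPKM) and hypoxia replicate 4 for adrenal markers (1067 FPKM), while hypoxia replicates 1 to 3 lie at 4.11 to 4.82 FPKM for B cell markers.

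Of 13 other tested genes known from plasma cells, 1 rose and 2 fell in hypoxia replicates 1 to 3, beside 12.3% of all tested genes called in either direction, with a median log2 fold change of -0.056, against -0.00050 over all tested genes. Fkbp11, an ER peptidyl-prolyl isomerase, rose to 1.21 ± 0.0984 FPKM in hypoxia (SD, n = 3), against 0.660 ± 0.122 FPKM in controls (SD, n = 5; limma adjusted p = 0.0270). Creld2, an ER stress protein, fell to 12.6 ± 3.31 FPKM, against 29.8 ± 4.84 FPKM (adjusted p = 0.00412), and Edem1, a lectin of ER degradation, to 19.5 ± 0.661 FPKM, against 26.2 ± 2.07 FPKM (adjusted p = 0.00939). Sdc1, the surface marker CD138, which tubule cells also make, was at 2.91 to 4.87 FPKM in hypoxia and 3.18 to 5.36 FPKM in controls. Slamf7, a further surface marker, was at 0.362 to 0.673 FPKM in hypoxia and 0.325 to 0.469 FPKM in controls and fell below the filter on low values. The call of Fkbp11 was lost in 5 of the 8 fits without 1 library and with all 10 libraries (adjusted p = 0.0895).

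Among genes of the ER machinery in which Mzb1 and Derl3 work, which are expressed in most cell types, more fell than rose. Of 17 tested ER chaperones and other ER folding or stress factors, 11 fell and 0 rose, with a median log2 fold change of -0.73. Over all tested genes 7.75% fell and 4.53% rose. Calr, calreticulin, fell to 145 ± 7.63 FPKM in hypoxia (SD, n = 3), against 302.5 ± 34.5 FPKM in controls (SD, n = 5; limma adjusted p = 0.000688), and Manf, a secreted ER stress factor, to 9.17 ± 0.963 FPKM, against 20.4 ± 2.32 FPKM (adjusted p = 0.000612). Hyou1 and Dnajb11, a chaperone and a cochaperone of BiP, fell by 1.01 and 1.00 on the log2 scale (adjusted p = 0.00104 and 0.00139). Of 17 tested genes of ER-associated degradation, 7 fell and 1 rose, beside the same shares of all tested genes, with a median of -0.23. Those that fell include Edem1, also counted among the other plasma cell genes, and Derl1 and Derl2, given above. Sel1l, the scaffold of the main ubiquitin ligase complex of this pathway, fell to 13.7 ± 0.222 FPKM, against 19.0 ± 1.21 FPKM (adjusted p = 0.00412), Vcp, the extracting ATPase, by 0.41 on the log2 scale (adjusted p = 0.00872) and Nploc4, its cofactor, by 0.33 (adjusted p = 0.0121). Erlec1, the member that rose, was named after its values were seen and had 18.9 to 19.3 FPKM in hypoxia and 14.3 to 16.7 FPKM in controls (adjusted p = 0.0332). Of the 8 calls, 4 were left without hypoxia replicate 1.

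Of 13 tested transcription factors of the B cell and plasma cell program beside Prdm1, Irf4 and Pou2af1, 1 rose and 0 fell, and the median log2 fold change was 0.093. Over all tested genes 12.3% were called in either direction. Id3, an inhibitor of basic helix-loop-helix factors, rose to 44.8 ± 9.40 FPKM in hypoxia (SD, n = 3), against 27.3 ± 5.79 FPKM in controls (SD, n = 5; limma adjusted p = 0.0351), with overlapping groups. Xbp1, the factor that drives the secretory program of plasma cells, had 36.4 to 43.7 FPKM in hypoxia and 47.7 to 67.0 FPKM in controls and did not pass (adjusted p = 0.0530). Pax5, which marks B cells before the plasma cell stage, was at 0.0644 FPKM or less in all 8 libraries. Its 9 to 10 reads a library in hypoxia did not overlap with 0 to 6 in controls. Of the 8 other interferon regulatory factors, Irf9 rose by 0.34 (adjusted p = 0.0322) and Irf3 fell by 0.36 on the log2 scale (adjusted p = 0.0346). When each of the 8 libraries was left out in turn, Id3 and Irf9 lost their call in 6 fits and Irf3 in 7, and all 3 lost it with all 10 libraries (adjusted p = 0.0657, 0.0852 and 0.0962).

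Survival factors and their receptors had a median log2 fold change of 0.12. Of the 5 tested genes 1 rose and 0 fell, beside 4.53% and 7.75% of all tested genes. That gene was Cxcl12, a chemokine that holds plasma cells in their niche, at 41.8 ± 1.49 FPKM in hypoxia (SD, n = 3) and 23.7 ± 5.37 FPKM in controls (SD, n = 5; limma adjusted p = 0.0152), and no gene of the list passed without hypoxia replicate 1. The ligands of BCMA were low throughout, with Tnfsf13 (APRIL) at 0.209 to 0.535 FPKM in hypoxia and 0.291 to 0.515 FPKM in controls and Tnfsf13b (BAFF) at 0.316 to 0.501 and 0.139 to 0.337 FPKM. Among homing genes, 0 of 10 rose and 1 fell, beside the same shares of all tested genes, at a median of -0.015. Ccl28, a mucosal chemokine that draws IgA plasma cells, fell to 0.838 ± 0.289 FPKM in hypoxia, against 2.72 ± 0.751 FPKM in controls (adjusted p = 0.0102), and its receptor Ccr10 stayed at 0.237 FPKM or less in hypoxia and 0.483 FPKM or less in controls.

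Around Pigr, the vesicle transport genes reported for its transcytosis did not move one way. Of 16 tested genes, 1 rose and 3 fell, beside 12.3% of all tested genes called in either direction, with a median log2 fold change of -0.049. Exoc4, a subunit of the exocyst, fell to 3.74 ± 0.102 FPKM in hypoxia (SD, n = 3), against 5.52 ± 0.542 FPKM in controls (SD, n = 5; limma adjusted p = 0.00838), and Rab11fip5, a partner of the recycling GTPase Rab11, to 16.9 ± 1.49 FPKM, against 24.0 ± 2.0 FPKM (adjusted p = 0.00902). Myo5b, a recycling endosome motor, fell by 0.25 and Rab3d, a GTPase of secretory vesicles, rose by 0.35 on the log2 scale, both near the threshold (adjusted p = 0.0440 and 0.0476) and each lost in 7 of the 8 fits without 1 library.

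Receptors and factors known to raise Pigr transcription in epithelia gave 0 higher and 1 lower gene among 15 tested, at a median log2 fold change of -0.0056. Over all tested genes 12.3% were called in either direction. Il17ra, a chain of the interleukin 17 receptor, fell to 2.99 ± 0.264 FPKM in hypoxia (SD, n = 3), against 4.62 ± 0.234 FPKM in controls (SD, n = 5; limma adjusted p = 0.00352), a call that was lost with all 10 libraries (adjusted p = 0.306). Among the other immunoglobulin receptors 1 of 9 tested genes rose and 0 fell, at a median of 0.066. Fcamr, a receptor of IgA and IgM, rose to 12.3 ± 2.45 FPKM, against 6.68 ± 1.14 FPKM (adjusted p = 0.0152), and lost its call with all 10 libraries (adjusted p = 0.120) and without hypoxia replicate 1, with 7.52 and 6.60 FPKM in hypoxia replicates 4 and 5. Fcgrt, the neonatal Fc receptor that recycles IgG, had 84.2 to 107.8 FPKM in hypoxia and 85.0 to 113.4 FPKM in controls (adjusted p = 0.531).

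**Figure D4:**
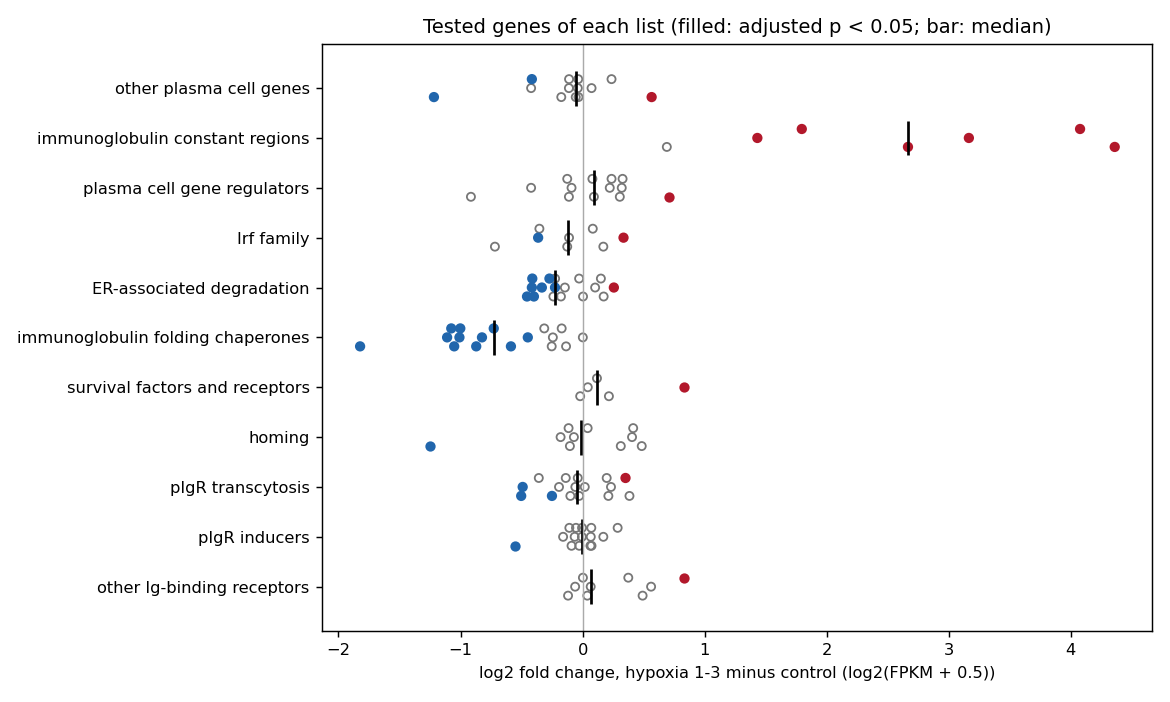
Log2 fold change, hypoxia replicates 1 to 3 minus controls, of each tested gene in the lists around the 8 genes; filled dots passed an adjusted p of 0.05 (red higher, blue lower in hypoxia), open dots did not, and black bars are list medians. Of the constant region genes 6 of 7 lie past the threshold on the higher side. Of the list labelled folding chaperones, which also holds other ER factors, 11 of 17 lie past it on the lower side. Among all tested genes 4.53% were called higher and 7.75% lower, and several constant region genes met the filter on low values only through hypoxia.

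Protein-coding genes were ranked by how closely their profiles over the 8 libraries followed those of Jchain and Pigr. Likeness was the root mean square distance between log2 profiles scaled to mean 0 and SD 1, over the 9717 tested protein-coding genes that averaged 2 FPKM or more. Immunoglobulin chain genes carry another biotype in the annotation and were left out by this limit. Among the protein-coding genes, those nearest to Jchain were Gm10639 (distance 0.180), Kynu (0.227), Akr1c19 (0.232), Sprtn (0.242) and Gsta3 (0.248). Measured in the same way, after the ranking was seen, Igkc lay at a distance of 0.148 from Jchain, nearer than any of these, Igha at 0.234 and Ighm at 0.948. Nearest to Pigr were Ropn1l (0.133), Phf7 (0.178), Hpd (0.225), Idh2 (0.255) and Pdxk (0.277). Jchain and Pigr were chosen on the contrast of these same 8 libraries. With each profile scaled to SD 1, genes with a similar step between the groups lie near them, so nearness is a description only. In hypoxia replicates 4 and 5, where Jchain was higher still, Gm10639 was at 2.36 and 1.99 FPKM, below the 4.94 to 5.87 FPKM of hypoxia replicates 1 to 3.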

How the data were processed

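The authors deposited FPKM per gene and library. Per the submitters' processing notes, reads were aligned with HISAT2 2.0.5, and hg38, a human build, is listed. The identifiers are of mouse genes, however, and of 55141 genes matched to a GENCODE annotation of GRCm38, 99.4% had the same start and end. How reads were counted, and whether by strand, is not given in the sources used here. The deposited table also gives gene length, another quantity (other unit) used to recover reads, since FPKM times length gave whole reads for 100% of values in every library (tolerance 0.05).

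Groups followed the treatment label. Hypoxia replicates 1 to 3 were compared with control replicates 1 to 5 in limma 3.58.1 (R 4.3.3; eBayes with trend and robust, two-sided, Benjamini-Hochberg over all tested genes, tested on simulated data). Alternatives covered the libraries, pseudocount, filter, scaling, error model, replicate number, threshold and each library left out. The members and lists were chosen with earlier results of these data known. Of each of 11 lists by role, up to 4 genes past the threshold with the smallest p are named, the 11 marker lists are given as sums, and genes such as Sdc1, Xbp1, Ighm, Derl1 and Tnfsf13 were added for their role after their values were seen. Of 265 listed symbols, 264 were found.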

Additional observations from a re-analysis of the deposited data

Results flagged for a closer look

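In 7 of the 8 genes hypoxia replicate 5 stood far above the other 4 hypoxia libraries, at 127 FPKM for Jchain, 2.53 for Mzb1, 1.01 for Tnfrsf17, 2.39 for Derl3, 1.39 for Prdm1, 8.38 for Irf4 and 43.0 for Pou2af1. Among the controls, replicate 3 stood apart for Tnfrsf17 (0.292 FPKM, 4 reads), for Irf4 (0.158 FPKM, the lowest) and for Igha (0.112 FPKM, 5 reads). Such gaps were found in 10 of 41 groups examined. A chance rate of about 1 in 20 is no fair comparison for this count. Hypoxia replicate 5 had been set apart beforehand, and the control values of Tnfrsf17 and Igha rest on few reads.

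The libraries shown apart also exceeded the highest control. In hypoxia replicate 4 this held for Jchain (13.4 FPKM, against 0.502 in the highest control), Pigr (226 against 54.8), Irf4 (0.575 against 0.341) and Pou2af1 (0.265 against 0.0937). In hypoxia replicate 5 it held for all 8 genes, at the values above and at 151 FPKM for Pigr.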

How the results depend on the processing

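The number of genes past the threshold, 667 higher and 1141 lower in hypoxia, was 422 and 615 without the filter on low values, 140 and 315 at an adjusted p of 0.01, 279 and 602 with a replicate block, and 265 and 734 with a replicate block and all 10 libraries. It was 1128 higher when scaled without the 100 most abundant genes. Leaving out 1 library gave 249 to 733 higher and 512 to 1343 lower. The count of the 8 genes past the threshold, 2, comes from the values that chose them and is a description; it was 1 without hypoxia replicate 3 and 1 at an adjusted p of 0.01, and 1 to 2 when 1 library was left out. The log2 fold change of Jchain was 3.89 with all 10 libraries, also with a replicate block, 3.78 and 1.88 with pseudocounts of 0.1 and 1, and 4.59 with voom on recovered reads, against 2.51, and leaving out 1 library gave 2.42 to 2.65. That of Pigr stayed within 1 SD of 1.35 under the alternatives run. Same-numbered libraries did not deviate together (correlations 0.028, 0.14 and -0.0057 for replicates 1 to 3), so the numbers were not treated as pairs. Of 25 named genes of the lists, 18 passed with all 10 libraries, 16 with the replicate block and 17 in every fit without 1 library, and 0 changed direction. Levels of Mzb1, Tnfrsf17 and Pou2af1 rest on so few reads that depth limits them.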
